A study of Danio rerio
Oryzias latipes and Oryzias latipes and Danio rerio with 7 samples.

Results

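Lens membrane and lens regulator genes were followed in zebrafish, medaka and chimeras of both: the fibre membrane genes mipa, mipb and lim2.1, the cytoskeletal gene bfsp2, the lipid-binding gene fabp11a, and the transcription factor genes foxe3, pitx3 and hsf4. Their records were found by gene symbol, and the genes were chosen with earlier results of these data known. They make up 8 of 32264 gene IDs in the zebrafish tables. On the medaka genome 7 of the 8 symbols were found, among 20459 gene IDs. No medaka record carried the symbol lim2.1.

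Whole embryos were sequenced in 7 poly(A)-selected libraries. Chimeras, called zebraka (strain label Cab/AB, n = 3), were medaka blastulae that had received zebrafish blastomeres of the same age and were kept in ERM, a medaka rearing medium. Zebrafish embryos of the AB strain (n = 2) were kept in E3, an embryo medium, and medaka embryos of the Cab strain (n = 2) in ERM, all at 28 °C. The stage is given only as embryo, and nothing says how many embryos went into a library, how many donor cells were moved or where they settled. Each library was deposited as FPKM (mapped fragments scaled to transcript length and to the size of the library) on each genome apart, so donor transcripts are read on the zebrafish genome and host transcripts on the medaka genome. The libraries of a group are not said to come from separate clutches, so p-values measure only the spread between these libraries, which may be technical.

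The vertebrate lens has an epithelium at its front, and cells that leave it elongate into fibres packed with crystallins and joined by specialised membrane proteins. Foxe3 and Pitx3 are forkhead and paired-type homeodomain factors of the early lens and its epithelium, and Hsf4 is a heat shock factor needed for fibre maturation in mammals. Mip, also called aquaporin 0, is the main water channel of fibre membranes, Lim2 is a tetraspan membrane protein of fibre cells, and Bfsp2 (phakinin) is a partner in the beaded filament, an intermediate filament of the lens. Fabp11a, a fatty acid binding protein that the reference gene table lists as fabp4a, is known in zebrafish from the lens and also from other sites, and pitx3 is likewise active outside the lens, including midbrain dopamine neurons.

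In the files' danRer10 coordinates, mipa lies on chromosome 23 at 27141684 to 27146233 and its paralogue mipb on the same chromosome at 6703639 to 6707251. The locus of lim2.1 is on chromosome 10 at 30009935 to 30016825, that of bfsp2 on chromosome 2 at 32777912 to 32785733, and that of fabp11a on chromosome 19 at 32579389 to 32581848. Among the regulators, foxe3 spans 19636569 to 19638220 of chromosome 8, pitx3 spans 7224110 to 7243014 of chromosome 13, and hsf4 spans 22757440 to 22764571 of chromosome 18. In medaka, whose build is not given in the sources used here, mipb is on chromosome 7, bfsp2 on 17, fabp11a on 22, foxe3 on 4, pitx3 on 15 and hsf4 on 6, while mipa is on an unplaced scaffold. All values are per gene, so exons and untranslated regions cannot be told apart.

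The depth on the 2 genomes was unequal. Fragment numbers worked out from the deposited confidence limits came to 763593 to 941326 per chimera on the zebrafish genome, against 21850177 and 28543877 in the zebrafish libraries. For the same FPKM, a zebrafish library held 38.3 to 49.3 times the fragments of a chimera. On the medaka genome chimeras held 27167679 to 30983902 fragments, and medaka libraries 18330371 and 21491602. Reads of the other species did not reach these genes: 0 of 16 values were above 0 for the 8 genes in medaka libraries on the zebrafish genome, and 0 of 14 in zebrafish libraries on the medaka genome.

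In zebrafish embryos the 8 genes spanned a wide range of deposited FPKM. Highest was fabp11a, followed by lim2.1, and then mipa and mipb, whose libraries overlapped. Next came pitx3 and bfsp2, then foxe3, with hsf4 lowest. Relative to mipb within the same library, mipa stood at 1.06 and 1.19, lim2.1 at 1.44 and 1.57, fabp11a at 3.19 and 3.56, and bfsp2 at 0.235 and 0.185. The order of the higher members was thus the same in both zebrafish libraries, while bfsp2 was the member on which those libraries differed most.

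Setting chimeras beside zebrafish embryos on the zebrafish genome asks how donor-derived RNA in a medaka host differs from RNA of a whole zebrafish embryo. Donor transcripts of the fibre membrane and filament genes were nearly absent from the chimeras: mipa, lim2.1 and bfsp2 were listed at 0 in all 3 libraries and mipb in 2 of them. The regulator pitx3 was much lower than in zebrafish embryos, and fabp11a alone kept a level near that of zebrafish embryos. For foxe3 the chimeras were lower too, but on 2.99 fragments in all. Its call was lost in some alternatives, among them quantile normalization (change -0.07, limma adjusted p = 0.83). All 7 members that could be tested fell, 0 of them rose, and their median log2 change was -3.13. Over all 16556 genes tested 32.5% fell (5376) and 10.5% rose (1744), with a median of -0.23, whereas under quantile normalization 3308 fell and 5390 rose, with a median of 0.30 and 6 of the 7 members lower. Of the 7, 6 passed the minimum of 1 FPKM only through the zebrafish libraries, so their direction was fixed by the filter and their count lends nothing to it. In whole-embryo RNA, fewer cells of a type and less RNA per cell cannot be told apart.

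**Figure D1:**
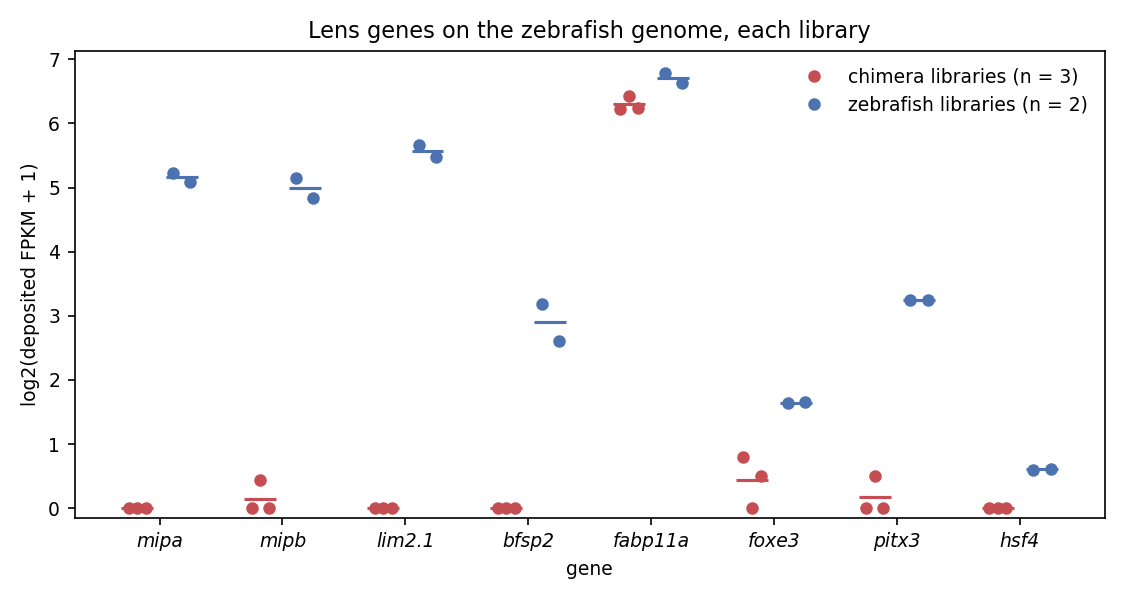
Deposited FPKM of the 8 lens genes on the zebrafish genome, as log2(FPKM + 1), in each chimera library (n = 3, red) and each zebrafish library (n = 2, blue); short lines are group means. Chimeras lie at or near 0 for mipa, mipb, lim2.1, bfsp2, pitx3 and hsf4, of which hsf4 is low in zebrafish embryos too (0.517 and 0.523 FPKM). For foxe3 the chimeras reach 0.746 FPKM, against 2.12 and 2.14 FPKM in zebrafish embryos. Chimera values of fabp11a, 74.2 to 85.0 FPKM, lie just under the zebrafish values.

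The water channel gene mipa had 0, 0 and 0 FPKM in chimeras, against 36.6 and 33.0 FPKM in zebrafish embryos. Both zebrafish libraries were high and no chimera held a fragment of it. At the zebrafish level the 3 chimeras would have held 474 fragments in all, an average of 158 each, so their depth would have shown far lower levels. Setting a floor of 3 fragments over the 3 chimeras together, mipa was at least 158-fold lower in chimeras than the mean zebrafish level. The change in the limma fit was -5.20 on the log2(FPKM + 1) scale (SE 0.15, Benjamini-Hochberg adjusted p = 6.2e-05). That scale understates the change of genes near 0.

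Its paralogue mipb had 0, 0.359 and 0 FPKM in chimeras, against 34.5 and 27.7 FPKM in zebrafish embryos. The groups were far apart, and chimera 2 was the only chimera above 0. It rested on 0.50 of an implied fragment, where 112 would lie over the 3 chimeras at the zebrafish level. The ratio of fragments was 0.00446, with a 95% exact Poisson interval of 0.000226 to 0.0497 when the total is rounded up to 1. In limma mipb fell by 4.90 on the log2 scale (SE 0.23, adjusted p = 1.1e-04).

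The tetraspan gene lim2.1 had 0, 0 and 0 FPKM in chimeras, against 49.6 and 43.6 FPKM in zebrafish embryos, with no overlap. Over the chimeras 76.1 fragments would lie at the mean zebrafish level, so the gene was at least 25.4-fold lower than that mean at the same floor. This was the largest fitted change among the 8 genes, at -5.61 (SE 0.16, limma adjusted p = 5.7e-05).

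The beaded filament gene bfsp2 had 0, 0 and 0 FPKM in chimeras, against 8.11 and 5.11 FPKM in zebrafish embryos. The groups did not overlap, although the zebrafish libraries were unequal: the deposited limits were 7.51 to 8.72 FPKM in the first and 4.71 to 5.51 FPKM in the second. With 53.1 fragments at the mean zebrafish level and the same floor of 3, bfsp2 was at least 17.7-fold lower in chimeras than that mean. This bound covers counting error only and leaves out the spread between the zebrafish libraries. The fitted change of bfsp2 was -2.94 (SE 0.23, limma adjusted p = 5.4e-04).

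**Figure D2:**
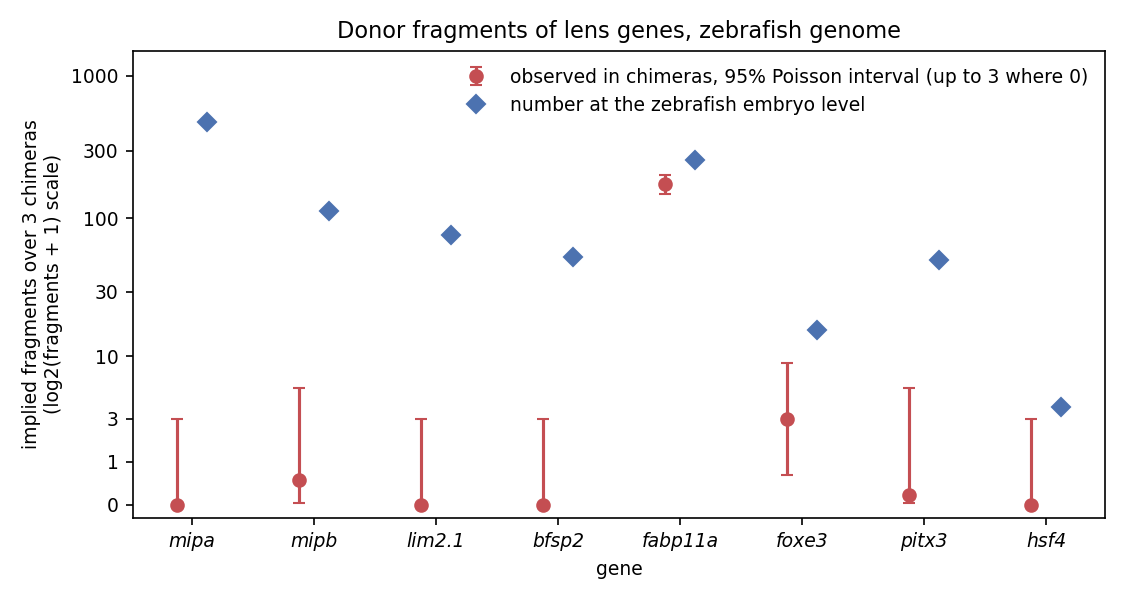
Fragments implied by the deposited confidence limits, summed over the 3 chimeras on the zebrafish genome (red, with 95% exact Poisson intervals, drawn up to 3 where the sum is 0), beside the number the same chimeras would hold at the mean level of zebrafish embryos (blue), on a log2(fragments + 1) axis. The sums of mipa, mipb, lim2.1, bfsp2 and pitx3 lie far under the zebrafish level, that of fabp11a is 173 against 256, and for hsf4 only 3.82 fragments would lie there at all.

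Donor fabp11a had the smallest fitted change of the 7 tested genes. It had 74.2, 85.0 and 74.5 FPKM in chimeras, against 110 and 98.5 FPKM in zebrafish embryos, so all 3 chimeras were lower, without overlap. The chimeras held 61.1, 56.1 and 56.1 fragments of it, where an average of 85.2 would lie at the zebrafish level. Observed over expected fragments came to 0.679 (95% exact Poisson interval 0.583 to 0.790, counting error only). After rescaling, the mean was 76.2 ± 4.93 FPKM in chimeras (SD, n = 3) and 108 ± 14.4 FPKM in zebrafish embryos (SD, n = 2), a ratio of 0.707. In limma fabp11a fell by 0.49 on the log2 scale (SE 0.12, adjusted p = 0.026), or by 0.26 relative to the median of all genes. The call was lost without chimera 1 (adjusted p = 0.081), without chimera 3 (adjusted p = 0.081) or without zebrafish library 1 (adjusted p = 0.12), the change then lying between -0.45 and -0.35.

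Among the regulators, pitx3 had 0, 0.418 and 0 FPKM in chimeras, against 8.52 and 8.53 FPKM in zebrafish embryos. The zebrafish libraries were almost equal and all chimeras lay far below them. The value in chimera 2 rested on 0.179 of a fragment, where 50.5 would lie over the chimeras at the zebrafish level. This gave a fragment ratio of 0.00354 (95% exact Poisson interval 0.000501 to 0.110, the total rounded up to 1). A part of a fragment is not a count, and the ratio of rescaled mean FPKM was higher, at 0.0153. The fitted change of pitx3 was -3.13 (SE 0.21, limma adjusted p = 3.1e-04).

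The forkhead gene foxe3 had 0.746, 0 and 0.421 FPKM in chimeras, against 2.12 and 2.14 FPKM in zebrafish embryos. All chimeras were lower, but they held only 1.99, 0 and 1.00 fragments of it, where 15.8 would lie at the zebrafish level. The fragment ratio was 0.189, with a wide 95% exact Poisson interval of 0.0391 to 0.554. In limma foxe3 fell by 1.24 on the log2 scale (SE 0.26, adjusted p = 0.017). The call was lost without zebrafish library 1 (change -1.22, adjusted p = 0.24) or 2 (change -1.28, adjusted p = 0.21). It was also lost at a pseudocount of 0.1 (change -2.71, adjusted p = 0.10) and under quantile normalization (change -0.07, adjusted p = 0.83).

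Donor hsf4 had 0, 0 and 0 FPKM in chimeras, against 0.517 and 0.523 FPKM in zebrafish embryos, and was left out of the test for its low mean. Only 3.82 fragments would lie over the 3 chimeras at the zebrafish level, and a total of 0 allows up to 3. A donor level of up to 0.785 of the zebrafish level is therefore within what this depth allows. With no filter on low values limma gave hsf4 a change of -0.62 (adjusted p = 2.8e-04), in a fit that takes a listed 0 as exact.

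In all 7 tested members the highest chimera was below the lowest zebrafish library, an arrangement found in 43.4% of all tested genes. Of the 7, 6 passed the minimum only through the zebrafish libraries, which favours this order, so the comparison with that share lends no support. The untested hsf4 was arranged likewise, at a depth where a total of 0 says little. The smallest 2-sided exact permutation p for 3 against 2 libraries is 0.1, so that test cannot reach 0.05 for any single gene.

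The other lens genes on the zebrafish genome are given for their levels. From a list of fibre structure and junction genes, 10 of 10 tested fell, 0 rose, and the median log2 change was -3.06. The summed level of these 10 was 9.91 to 16.6 FPKM in chimeras, against 159 and 194 FPKM in zebrafish embryos, and 5 of them were listed at 0 in every chimera. All but epha2a (9 of 10) passed the minimum only through the zebrafish libraries, so the count says nothing of a shared direction. The lim2 relatives lim2.4 (0.230 ± 0.398 FPKM in chimeras and 64.4 ± 15.7 FPKM in zebrafish embryos) and lim2.3 (0 FPKM in each chimera, 37.7 ± 9.74 FPKM in zebrafish embryos) fell, as did the connexin gene cx23 (0 FPKM in each chimera, 14.9 ± 1.15 FPKM in zebrafish embryos; rescaled means, SD, n = 3 and 2). The ephrin receptor gene epha2a, which is also active outside the lens, fell less far, with 11.5 ± 3.26 FPKM in chimeras and 29.0 ± 2.88 FPKM in zebrafish embryos, a change of -1.30. Its call was lost without zebrafish library 1 (change -1.20, limma adjusted p = 0.16) or 2 (change -1.40, adjusted p = 0.11).

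Crystallins are the soluble proteins of the lens. Of 12 tested, 11 fell and 0 rose, with a median change of -6.69, but all 12 passed the minimum only through the zebrafish libraries, so their direction was fixed by the filter. Summed, they reached 0 to 1.91 FPKM in chimeras, against 1127 and 1597 FPKM in zebrafish embryos. Among the most abundant, cryba2b and cryba1b were listed at 0 in every chimera, against 225 ± 44.2 and 219 ± 68.7 FPKM in zebrafish embryos, while cryba4 had 0.355 ± 0.615 FPKM in chimeras and 291 ± 107 FPKM in zebrafish embryos. For crybb1l2 the levels were 0.219 ± 0.379 FPKM in chimeras and 248 ± 76.9 FPKM in zebrafish embryos.

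Placode and fibre regulators other than foxe3, pitx3 and hsf4 were mixed. Of 16 tested, 13 fell and 2 rose, with a median change of -2.19, and 9 of the 16 passed the minimum only through the zebrafish libraries. Without zebrafish library 1, and likewise without zebrafish library 2, only 7 fell and 1 rose. The transcription factor gene sox2, also active in neural tissue, was 90.6 ± 11.3 FPKM in chimeras and 51.2 ± 3.73 FPKM in zebrafish embryos, and prox1a, also active in the retina, was 21.4 ± 1.17 FPKM in chimeras and 6.55 ± 0.972 FPKM in zebrafish embryos, so both rose. The call of sox2 was lost without zebrafish library 1 (limma adjusted p = 0.074) or 2 (adjusted p = 0.10). The homeobox gene meis2b fell to 11.6 ± 0.366 FPKM in chimeras, against 35.5 ± 0.837 FPKM in zebrafish embryos, and the RNA-binding protein gene celf1 fell to 28.6 ± 3.08 FPKM in chimeras, against 38.4 ± 0.425 FPKM in zebrafish embryos. The call of celf1 was lost under quantile normalization (change -0.30, limma adjusted p = 0.11) and with FPKM left unscaled (change -0.34, adjusted p = 0.074), and in 4 of the 5 fits that left out a library.

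Family relatives of the 8 genes, such as other aquaporins and fatty acid binding proteins, gave 17 of 21 tested lower and 1 higher at a median of -2.90, and 12 of the 21 passed the minimum only through the zebrafish libraries. The single rise, that of the heat shock factor gene hsf2, was lost without chimera 1 or without either zebrafish library. The gut genes fabp1b.1 and fabp2 were listed at 0 in every chimera, against 1111 ± 64.5 and 161 ± 1.34 FPKM in zebrafish embryos. The tetraspan gene pmp22a had 0.978 ± 1.16 FPKM in chimeras and 142 ± 19.5 FPKM in zebrafish embryos, and the intermediate filament gene vim had 17.4 ± 3.50 FPKM in chimeras and 67.5 ± 8.46 FPKM in zebrafish embryos. Both of these fell.

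Markers of other tissues moved in the same chimeras. All 20 tested retinal genes rose, at a median change of 2.53, where 10.5% of all tested genes rose. The list was chosen with earlier results of these data known, so this count lends no support. Of the 20 genes, 19 passed the minimum in both groups. Some of these calls were lost without zebrafish library 1 or without zebrafish library 2, at changes that stayed between 0.87 and 2.05. The filter fixed the direction of nr2e3 (rescaled means of 27.7 FPKM in chimeras and 0.872 FPKM in zebrafish embryos), which passed only through the chimeras. The summed level of the 20 was 1512 to 1656 FPKM in chimeras, against 215 and 219 FPKM in zebrafish embryos. The highest of them were pax6a (291 ± 18.7 FPKM in chimeras and 39.2 ± 1.28 FPKM in zebrafish embryos), which acts in lens and retina alike, and neurod4 (248 ± 8.62 FPKM in chimeras and 66.3 ± 9.05 FPKM in zebrafish embryos). Next were atoh7 (169 ± 6.20 FPKM in chimeras and 11.2 ± 3.73 FPKM in zebrafish embryos) and tbx2b (117 ± 10.6 FPKM in chimeras and 22.8 ± 0.595 FPKM in zebrafish embryos). All tested markers of skeletal muscle (7 of 7), blood (5 of 5) and epidermis (5 of 5) fell, of which all 7, all 5 and 4 passed the minimum only through the zebrafish libraries, so the filter fixed their direction. Their summed levels were 0 to 0.609, 0 to 0 and 2.19 to 4.62 FPKM in chimeras, against 3400 to 4757, 1662 to 1708 and 3562 to 3842 FPKM in zebrafish embryos. The muscle genes tnni2a.4, mylpfb and smyhc1, the blood genes hbbe3, hbbe2, slc4a1a and alas2, and the epidermal genes icn, icn2 and agr1 were at 0 in every chimera. Of the leading markers tnnt3a (0.201 ± 0.348 FPKM in chimeras and 899 ± 248 FPKM in zebrafish embryos) and krt5 (3.18 ± 0.991 FPKM in chimeras and 624 ± 10.4 FPKM in zebrafish embryos) were above 0. The part of this tissue composition in the levels of the lens genes was not tested.

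Setting chimeras beside medaka embryos on the medaka genome asks how host RNA differs between embryos with and without zebrafish cells. The 2 aquaporin genes and fabp11a rose in chimeras by 1.85 to 2.42-fold, while the regulators foxe3 and pitx3 did not pass the test. Of the 5 tested, 3 rose and 0 fell, and their median log2 change was 0.88. Over all 13721 genes tested 2.7% rose and 3.18% fell, around a median of 0.00. All 5 passed the minimum of 1 FPKM in both groups.

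**Figure D3:**
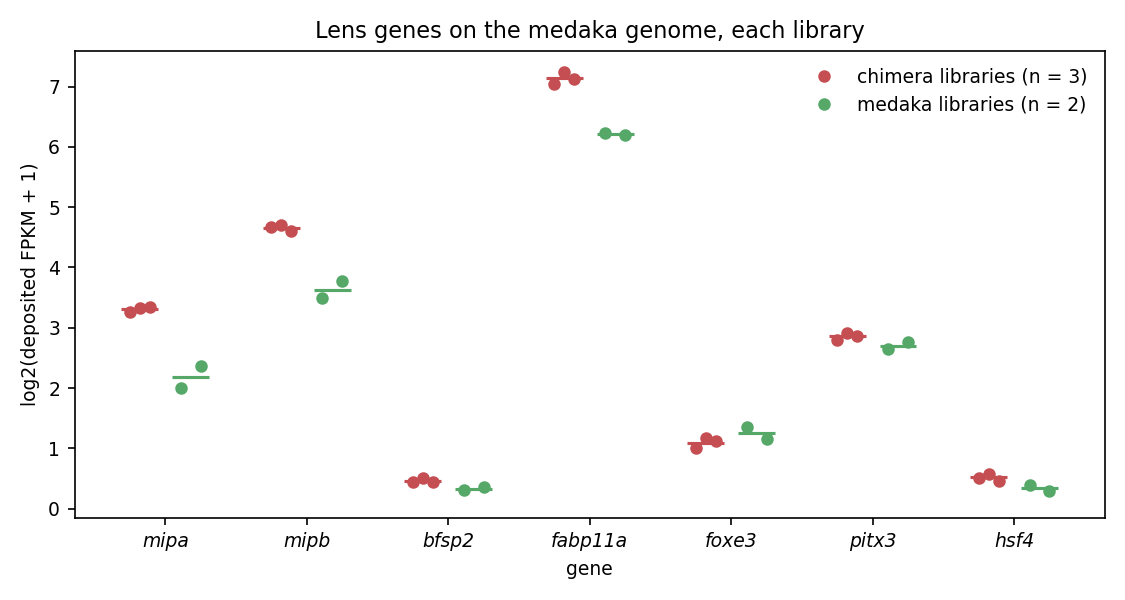
Deposited FPKM of the 7 lens genes found on the medaka genome, as log2(FPKM + 1), in each chimera library (n = 3, red) and each medaka library (n = 2, green); short lines are group means. The chimeras stand above medaka embryos for mipa, mipb and fabp11a, by 0.88 to 1.09 in the fit, and lie close to them for foxe3 and pitx3.

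Host mipa had 8.60, 9.05 and 9.11 FPKM in chimeras, against 2.99 and 4.14 FPKM in medaka embryos. The chimeras were close together and all above the higher medaka library, an arrangement found in 22% of all tested genes. After rescaling, the means were 8.81 ± 0.334 FPKM in chimeras and 3.64 ± 0.878 FPKM in medaka embryos (SD, n = 3 and 2), a 2.42-fold difference. The change was 1.09 (SE 0.11, limma adjusted p = 0.0077).

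Host mipb had 24.5, 25.1 and 23.3 FPKM in chimeras, against 10.2 and 12.7 FPKM in medaka embryos, again without overlap. Its rescaled mean was 24.0 ± 0.649 FPKM in chimeras and 11.7 ± 1.92 FPKM in medaka embryos, a 2.05-fold difference. The limma change was 0.99 (SE 0.09, adjusted p = 0.0052). Relative to mipb in the same library, mipa stood at 0.352, 0.361 and 0.391 in chimeras and at 0.292 and 0.327 in medaka embryos, so mipb was the more abundant paralogue in every library on the medaka genome.

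The host form of fabp11a had 131, 151 and 139 FPKM in chimeras, against 73.7 and 72.6 FPKM in medaka embryos. It was the most abundant of the members in all 5 libraries, and the chimeras stood well above the medaka libraries. Rescaled means were 138 ± 5.41 FPKM in chimeras and 74.5 ± 0.399 FPKM in medaka embryos, a 1.85-fold difference. The fitted change of 0.88 (SE 0.05, limma adjusted p = 0.0010) had the smallest error of the members. The calls of mipa, mipb and fabp11a were kept in each of the 15 alternatives run for each gene, with changes of 0.68 to 1.29, 0.80 to 1.14 and 0.85 to 0.92.

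Host pitx3 had 5.98, 6.54 and 6.24 FPKM in chimeras, against 5.28 and 5.79 FPKM in medaka embryos. The chimeras were slightly higher without overlap, but the change of 0.11 (95% interval -0.04 to 0.27, SE 0.06) did not pass the test (limma adjusted p = 0.32). The upper end of that interval is well under the changes of the aquaporin genes. Relative to mipb, pitx3 stood at 0.244, 0.261 and 0.268 in chimeras and at 0.516 and 0.457 in medaka embryos. In every chimera mipa was above pitx3, and in both medaka libraries it was below.

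Host foxe3 had 1.01, 1.25 and 1.17 FPKM in chimeras, against 1.56 and 1.22 FPKM in medaka embryos. The deposited values overlapped, with chimera 2 above the lower medaka library. After rescaling, all chimeras lay below both medaka libraries, an arrangement found in 22.6% of all tested genes. Rescaled means of foxe3 were 1.13 ± 0.0919 FPKM in chimeras and 1.41 ± 0.223 FPKM in medaka embryos (SD, n = 3 and 2). Its change of -0.18 (95% interval -0.40 to 0.05, SE 0.09) did not pass the test (limma adjusted p = 0.29).

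Both remaining members were under the minimum of 1 FPKM. The filament gene bfsp2 had 0.355, 0.426 and 0.363 FPKM in chimeras, against 0.242 and 0.280 FPKM in medaka embryos, resting on 28.1 to 30.2 fragments per chimera and 13.0 to 13.1 per medaka library. The heat shock factor gene hsf4 had 0.424, 0.498 and 0.381 FPKM in chimeras, against 0.317 and 0.22 FPKM in medaka embryos, on 9.67 to 13.6 and 2.23 to 5.03 fragments. Chimeras were higher for both without overlap. With no filter on low values, neither bfsp2 (change 0.12, limma adjusted p = 0.20) nor hsf4 (change 0.17, adjusted p = 0.17) passed. The interval of the deposited hsf4 value in the second medaka library reached 0.

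Of the host fibre structure and junction genes outside the 8, 6 of 6 tested rose, at a median of 0.75. Only 2 rose without medaka library 1, and 3 without medaka library 2 or without chimera 3, and 2 of the 6 passed the minimum only through the chimeras. Their summed level was 63.8 to 68.5 FPKM in chimeras, against 34.2 and 37.5 FPKM in medaka embryos. The members by level were lim2.4 (33.0 ± 1.21 FPKM in chimeras and 19.1 ± 1.89 FPKM in medaka embryos) and the connexin gene cx44.1 (11.8 ± 0.694 FPKM in chimeras and 6.43 ± 1.08 FPKM in medaka embryos). The call of cx44.1 was lost without chimera 3 (limma adjusted p = 0.050) or medaka library 1 (adjusted p = 0.061). Next by level were lim2.5 (10.6 ± 0.951 FPKM in chimeras and 5.98 ± 0.541 FPKM in medaka embryos) and lim2.3 (6.39 ± 0.268 FPKM in chimeras and 3.33 ± 0.229 FPKM in medaka embryos). For lim2.2, named after its value was seen, the rescaled means were 1.46 FPKM in chimeras and 0.758 FPKM in medaka embryos, a change of 0.48. It passed the minimum only through the chimeras, so the filter fixed its direction. All 4 tested lim2 genes were called higher on the medaka genome, where lim2.1 itself had no record, but this count lends no support to a shared direction. Of these calls, that of lim2.5 was lost without either medaka library (adjusted p = 0.065 and 0.088) and that of lim2.2 without any 1 of the 5 libraries (adjusted p = 0.064 to 0.20).

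Of 11 host crystallins tested 9 rose and 0 fell, at a median of 0.88. Of the 11, 1 passed the minimum only through the chimeras and 1 only through the medaka libraries. The first, cryba1a, had its direction fixed by the filter (change 0.59, limma adjusted p = 0.045). Its call was lost unscaled (adjusted p = 0.052), under quantile normalization (0.069) and without any 1 chimera (0.071 to 0.11). It was also lost at a pseudocount of 0.1 (adjusted p = 0.0503), with no filter on low values (0.064) and without limma's trend and robust options (0.063). Without medaka library 1 or 2 the change of cryba1a was 0.74 or 0.44, and the call was lost in both fits. The call of crygmx was lost without chimera 3 (adjusted p = 0.067). It was lost without medaka library 1 (change 0.69) and without medaka library 2 (change 0.62) as well. For cryaba, which passed only through the medaka libraries, the rescaled means were 0.508 FPKM in chimeras and 1.40 FPKM in medaka embryos. Its change of -0.68 did not pass the test (limma adjusted p = 0.057), and the filter fixed its direction. The summed level of the 11 was 497 to 551 FPKM in chimeras, against 244 and 268 FPKM in medaka embryos. The 4 most abundant were crybb1l1 (176 ± 10.3 FPKM in chimeras and 88.9 ± 9.24 FPKM in medaka embryos), crygn2 (96.6 ± 0.957 FPKM in chimeras and 47.0 ± 2.94 FPKM in medaka embryos), cryba1b (1.80-fold higher in chimeras than the 52.8 ± 1.30 FPKM in medaka embryos) and cryba2b (76.0 ± 2.13 FPKM in chimeras and 37.3 ± 4.24 FPKM in medaka embryos), and each of them rose.

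Host regulators other than foxe3 and pitx3 gave 1 of 9 tested higher, prox1a at 0.31 (limma adjusted p = 0.046), and 0 lower, with a median of -0.10. This call was lost with FPKM left unscaled (adjusted p = 0.060), with no filter on low values (adjusted p = 0.062) and without any 1 of the 5 libraries (adjusted p = 0.066 to 0.20). The most abundant, none past the threshold, were sox2 (61.5 ± 3.29 FPKM in chimeras and 56.4 ± 4.45 FPKM in medaka embryos), tfap2a (31.9 ± 1.62 FPKM in chimeras and 35.4 ± 1.26 FPKM in medaka embryos), six1b (17.2 ± 1.04 FPKM in chimeras and 17.0 ± 0.552 FPKM in medaka embryos) and mafbb (16.0 ± 0.404 FPKM in chimeras and 17.4 ± 1.03 FPKM in medaka embryos). Family relatives of the 8 genes gave 2 of 15 higher and 0 lower at a median of 0.05. Of their most abundant members, the brain and radial glia gene fabp7a rose to 49.8 ± 2.29 FPKM in chimeras, against 32.8 ± 3.00 FPKM in medaka embryos, a call that was lost without medaka library 1 (change 0.50, adjusted p = 0.083). The other rise, that of fabp11b, was lost in every fit that left out a library, so that 0 of the 15 rose without medaka library 1 and 1 without any other. The other leading relatives, fabp3, pmp22a and emp1, did not pass the test, at changes of 0.08, 0.05 and -0.17.

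Markers of other host tissues moved less evenly. Of 11 retinal genes 2 rose (1 without either medaka library) and 0 fell, and their summed level was 96.3 to 103 FPKM in chimeras, against 85.6 and 89.0 FPKM in medaka embryos. By level, neurod4 rose (14.6 ± 0.0850 FPKM in chimeras and 9.92 ± 0.0561 FPKM in medaka embryos), while tbx2b, rx2 and hmx1 did not pass, at changes of -0.04, -0.01 and 0.12, of which the first 2 turned to 0.00 and 0.03 with FPKM left unscaled and rx2 to 0.01 under quantile normalization. The other rise was that of atoh7 (1.68 FPKM in chimeras and 0.409 FPKM in medaka embryos). It passed the minimum only through the chimeras, so the filter fixed its direction. Of 6 muscle gene records, among them 2 of the troponin gene tnni2a.4, 2 rose and 2 fell. The higher tnni2a.4 record rose, with 28.2 ± 2.08 FPKM in chimeras and 20.1 ± 1.21 FPKM in medaka embryos. This call was lost without medaka library 1 (change 0.41) or 2 (change 0.53). The lower tnni2a.4 record did not pass, at 1.37 and 1.47 FPKM (change -0.07, limma adjusted p = 0.78). The myogenic factor genes myog and myod1 fell, with 10.8 ± 0.444 and 4.17 ± 0.233 FPKM in chimeras, against 17.3 ± 2.21 and 8.19 ± 0.885 FPKM in medaka embryos. The call of myog was lost without chimera 3 (change -0.60, limma adjusted p = 0.055) or medaka library 1 (change -0.50). The fourth by level, tnnt3a, did not pass (-0.07). Of 2 blood genes slc4a1a rose (0.41) and alas2 did not pass (0.04), and of 2 epidermal genes neither tp63 (-0.10) nor icn (0.22) passed. Without medaka library 1, 0 muscle genes rose and 1 fell, and without medaka library 2, 1 rose. Without chimera 3, 1 muscle gene fell, and the call of slc4a1a was lost there (adjusted p = 0.072) and without medaka library 1 (adjusted p = 0.095). The stage of the compared embryos is not given beyond embryo, and its part in the levels of the lens genes was not tested.

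**Figure D4:**
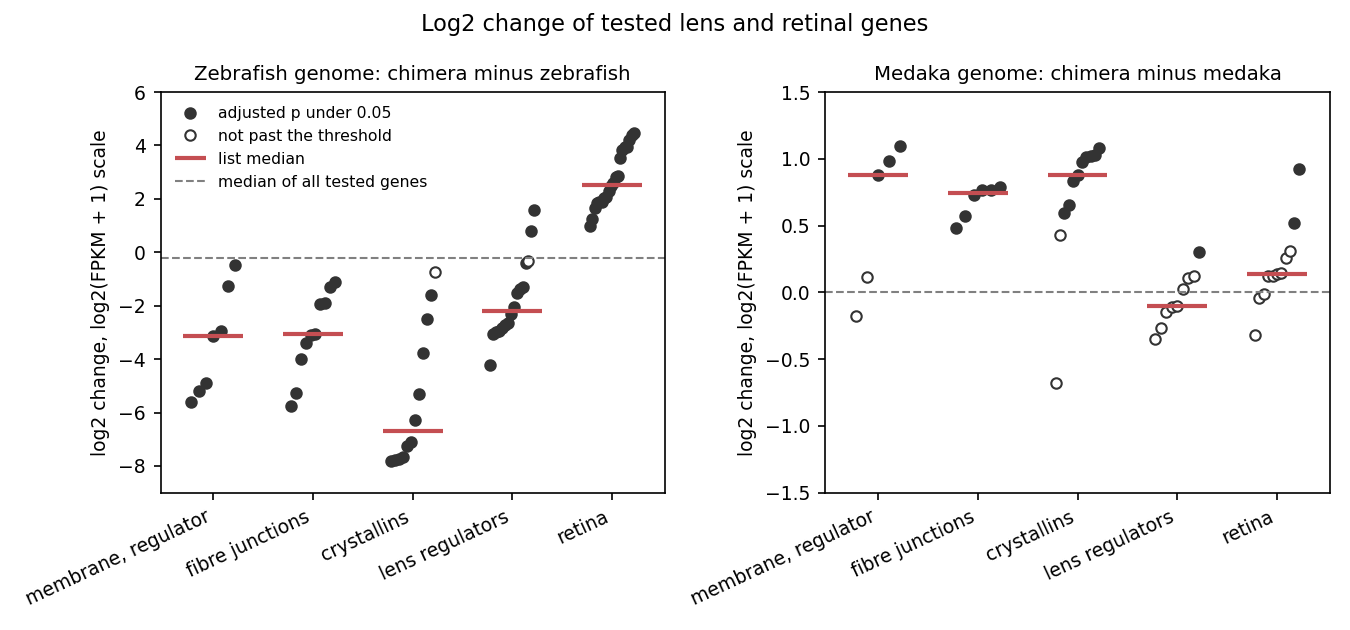
Log2 change on the log2(FPKM + 1) scale of each tested gene, on the zebrafish genome (left, chimera minus zebrafish embryo) and on the medaka genome (right, chimera minus medaka embryo), for the lens membrane and regulator genes, fibre structure and junction genes, crystallins, other lens regulators and retinal genes; filled points have an adjusted p under 0.05, red lines are list medians and the dashed line is the median of all tested genes. The membrane and regulator genes have a median of -3.13 on the left and 0.88 on the right.

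For 5 members the symbol was unique and tested in both genomes, so the donor and host changes could be set against each other. Both changes come from the same chimera libraries. The limma interaction, donor change minus host change on the log2 scale, was below 0 for all 5, where 30.6% of the 7789 genes compared were called below 0 and 12.9% above. On the donor side mipa, mipb, pitx3 and foxe3 passed the minimum only through the zebrafish libraries, so a negative donor change was built into their differences, and the shared sign lends no support. On the log2(FPKM + 1) scale, which understates changes of genes near 0, the water channel genes differed most. There mipa changed by -5.20 in the donor and 1.09 in the host, a difference of -6.30 (SE 0.19, adjusted p = 1.7e-08). For mipb the changes were -4.90 in the donor and 0.99 in the host, a difference of -5.88 (SE 0.25, adjusted p = 1.1e-07).

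The regulator pitx3 changed by -3.13 in the donor and 0.11 in the host, a difference of -3.24 (SE 0.22, adjusted p = 2.4e-06). With changes of -0.49 in the donor and 0.88 in the host, fabp11a differed by -1.37 (SE 0.13, adjusted p = 2.3e-05). The difference of foxe3 was -1.07 (SE 0.28, adjusted p = 0.012), from changes of -1.24 in the donor and -0.18 in the host. It was the smallest on the log2(FPKM + 1) scale, which understates changes of genes near 0. At a pseudocount of 0.1 the foxe3 difference lay beyond the -1.51 to -1.23 that fabp11a spanned over its alternatives. It was lost at a pseudocount of 0.1 (difference -2.42, adjusted p = 0.10) and without medaka library 2 (difference -0.97, adjusted p = 0.056), and turned to 0.35 under quantile normalization (adjusted p = 0.31).

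Because fabp11a was the most abundant member on both genomes, the genes with the most similar levels over the 5 libraries of each comparison were looked up by mean absolute difference in log2(FPKM + 1). On the zebrafish genome these were ndufb7 (0.0266), pdhb (0.0565), edf1 (0.0885), ube2e3 (0.0926) and hspd1 (0.0967), none of them a listed lens gene. On the medaka genome they were abracl (0.259), mif (0.269), rrm1 (0.271), tmem167a (0.279) and lsm6 (0.287), and all 5 of these showed a smaller gap between chimeras and medaka embryos than fabp11a did.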

How the data were processed

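The deposited values are FPKM per gene with confidence limits, which the authors made with HISAT2 and Cufflinks 2.2.1 on danRer10 and a medaka genome, per the submitters' processing notes. For HISAT2 no version, and for medaka no build, is given in the sources used here. All 14 tables (7 libraries, each on both genomes) were read. Members and gene lists were chosen with earlier results of these data known, so the lists give no independent support.

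Tested genes had a mean of at least 1 FPKM in either group, under 1 FPKM in the other species' libraries, and a valid Cufflinks status. This left 16556 zebrafish and 13721 medaka genes. FPKM were rescaled by median ratios over genes above 0 in all libraries of the fit, and log2(FPKM + 1) was tested with limma 3.58.1 (R 4.3.3, trend and robust options) over all genes. The Benjamini-Hochberg adjustment was used, at a threshold of 0.05. The interaction compared donor and host changes over 7789 genes. The code was tested on simulated data.

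Implied fragments were computed as (2 × FPKM / (upper limit − FPKM)) squared. They are too low for genes whose limits include isoform uncertainty, and intervals cover counting error only. Replicates differed beyond sampling noise (chi-square per degree of freedom 1.80 to 113). The 113 is that of the 2 zebrafish libraries, the controls of the donor comparison, and all other pairs lay between 1.80 and 13.7.

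Every member is named. From each of the 8 other lists, the 4 tested genes of highest mean FPKM are named, or all where fewer were tested, and for fabp11a the 5 genes of nearest level. On the medaka genome prox1a, fabp11b, lim2.2, cryba1a, cryaba, crygmx, atoh7 and the lower tnni2a.4 record were named after their values were seen. So were hsf2 and nr2e3 on the zebrafish genome. Alternatives covered the pseudocount, filters, scaling, the groups in the fit, limma options, a fragment floor and each library left out. No sequences were used here. Python 3.11.15, numpy 2.4.6, pandas 2.3.3, scipy 1.17.1 and matplotlib 3.10.9 were used.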

Additional observations from a re-analysis of the deposited data

Results flagged for a closer look

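Changes in donor and host transcripts of the same chimeras differed, by limma's interaction test, for all 5 lens genes that could be compared. The difference, donor change minus host change on the log2(FPKM + 1) scale, was -6.3 for mipa, -5.88 for mipb, -3.24 for pitx3, -1.37 for fabp11a and -1.07 for foxe3. Adjusted p-values (Benjamini-Hochberg over 7789 genes) were 1.7e-08 for mipa, 1.1e-07 for mipb, 2.4e-06 for pitx3, 2.3e-05 for fabp11a and 0.012 for foxe3. For mipa, mipb and fabp11a the donor change was a fall and the host change a rise, both past the threshold. For pitx3 and foxe3 only the donor change was. For all but fabp11a the donor side passed the minimum of 1 FPKM only through the zebrafish libraries, so a fall there was fixed by the filter and the shared sign of the differences lends no support. The foxe3 difference rests on 2.99 donor fragments in all.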

How the results depend on the processing

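Donor calls of mipa, mipb, lim2.1, bfsp2 and pitx3, and host calls of mipa, mipb and fabp11a, were kept in all 15 alternatives run for each. Exceptions were donor fabp11a and donor foxe3, given in the results, and the foxe3 difference, which reversed to 0.35 under quantile normalization. At a minimum mean of 5 FPKM foxe3 was not tested. Donor mipa, mipb, lim2.1, bfsp2 and pitx3 passed the minimum of 1 FPKM only through the zebrafish libraries. Their direction was thus fixed by the filter, and their kept calls lend it no support. For mipa, lim2.1 and bfsp2 the fits also take the listed 0 of every chimera as exact. Counts over all genes moved more. In the donor comparison (1744 higher, 5376 lower), quantile normalization gave 5390 higher and 3308 lower and moved the median of all genes from -0.23 to 0.30; 6 of the 7 members were still lower, as were 8 of 10 fibre genes, 10 of 12 crystallins and 11 of 16 regulators. No expression filter gave 9451 lower and a minimum of 5 FPKM 3083. Leaving out a library gave 628 to 1892 higher and 3321 to 5513 lower, with 628 and 3338 without zebrafish 1 and 753 and 3321 without zebrafish 2. In the host (370 higher, 436 lower), no scaling gave 247 lower, all 3 groups in 1 fit 975 higher and 995 lower, and leaving out a library 43 to 486 higher and 78 to 523 lower. The lowest counts came without medaka 1 (43 and 78), chimera 3 (67 and 90) and medaka 2 (72 and 91), and without chimera 1 there were 203 higher. Of the differences (1004 above, 2380 below), quantile normalization gave 2487 above and 1555 below, and leaving out a library 638 (without medaka 2; 653 without medaka 1) to 1159 above and 1987 to 2469 below. The chimera library as a correlated block gave 1013 above and 2392 below. The p-values printed for the differences come from the fit without that block. It takes the values of a chimera library on both genomes as independent, and their estimated correlation was 0.0187. Between groups no paired analysis was possible, because the labels give no replicate numbers shared between groups. Larger moves of counts over the other gene lists when a library was left out stand beside them in the results. Smaller moves do not all stand there. Donor counts of fibre genes and relatives called lower, and of retinal genes called higher, were also reduced without either zebrafish library. Depth limits the donor values of foxe3 and hsf4.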
